A study of Rattus norvegicus with 18 samples.

Results

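Hox genes were followed through epiblast and primordial germ cell (PGC) libraries of rat embryos. They were taken as every row of the expression table whose symbol is Hox, a cluster letter from a to d and a paralogue number, which gave 37 of 32545 rows and 35 distinct symbols, since Hoxa5 and Hoxa11 each stood on 2 rows. By cluster these were 10 rows of Hoxa, 10 of Hoxb, 8 of Hoxc and 9 of Hoxd. All libraries came from the Wistar strain Crlj:WI with the genotype Prdm14-Venus, a fluorescent reporter of the germ line gene Prdm14, so that no group lacked the reporter. Epiblast, the pluripotent layer from which germ cells and body arise, gave 3 libraries at E7.25 and 3 at E7.75, in each case 2 male and 1 female. PGC, the embryonic precursors of sperm and egg, gave 2 libraries with no sex given at each daily stage from E9.5 to E12.5, and at E15.5 a pair from males and a pair from females. How the cells were collected, how many embryos went into a library and whether replicates came from separate embryos is not stated in the labels, so p-values reflect the scatter of these libraries only, and that scatter may be technical.

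Hox genes encode homeodomain transcription factors that give cells their position along the head to tail axis. They lie in clusters in which low paralogue numbers are switched on first and further forward, and high numbers later and further back. The clusters are first activated in the posterior primitive streak and its mesoderm under Wnt, FGF, retinoic acid and Cdx proteins, are held silent elsewhere by Polycomb complexes, and the Hox proteins bind DNA together with cofactors of the TALE class (Pbx, Meis and Pknox). PGC arise from posterior epiblast beside that mesoderm, and loss of somatic genes, Hox genes among them, has been a standard mark of their separation from the soma in mouse. Here paralogues 1 to 3 are called anterior, 4 to 8 central and 9 to 13 posterior.

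Levels were RPKM, reads scaled to gene length and library total, a scale per length on which genes can be compared. The label PGC was set against 7 germ cell markers. Nanos3, an RNA-binding protein of germ cells, stood at 49.2 to 178 RPKM in the 12 PGC libraries and at 0.0559 to 3.90 RPKM in epiblast. Prdm1, Tfap2c, Dnd1 and Kit were likewise higher in every PGC library than in any epiblast library. Dppa3 stood at 31.3 to 85.7 RPKM in E9.5 replicate 2, E12.5 and female E15.5 PGC. It was at 0 to 0.537 RPKM in the other PGC libraries and at 0 in epiblast. Prdm14 was at 0.299 RPKM in E10.5 replicate 1 and at 3.64 to 17.4 in the other PGC libraries. Relative to E7.75 female epiblast, estimated depth was 82.6% to 120.9% in 14 libraries, but 20.7% to 22.9% in the 4 from E10.5 and E11.5 (for E10.5 replicate 1, another grouping of the ratios gave 41.4%). A gene listed at 0 at E10.5 or E11.5 therefore carries less weight than one listed at 0 elsewhere. In bulk libraries, fewer cells with a transcript and less RNA per cell cannot be told apart.

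Most of the Hox signal of the series lay in the 2 libraries of E9.5 PGC. The summed RPKM of all Hox rows was 0 to 0.695 in the 6 epiblast libraries, 210 and 182 at E9.5, 28.4 and 31.4 at E10.5, 15.1 and 10.2 at E11.5, 16.5 and 9.58 at E12.5, 10.9 and 7.05 in male PGC at E15.5, and 12.4 and 12.6 in female PGC at E15.5. No later library came near the E9.5 pair, and no epiblast library reached 1 RPKM in sum. Of the 37 rows, 22 and 20 reached 1 RPKM in the E9.5 libraries, 8 and 7 at E10.5, 7 and 5 at E11.5, 2 or 3 in each library of E12.5 and E15.5, and 0 in epiblast. At E9.5 this was 59.5% and 54.1% of Hox rows, beside 35.8% and 37.1% of all rows. In the other libraries 32.9% to 36.6% of all rows reached 1 RPKM, beside 0% to 21.6% of Hox rows. In 19 rows both E9.5 libraries lay above all 16 others. No such count was made over all genes, so this describes the Hox rows only.

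**Figure D1:**
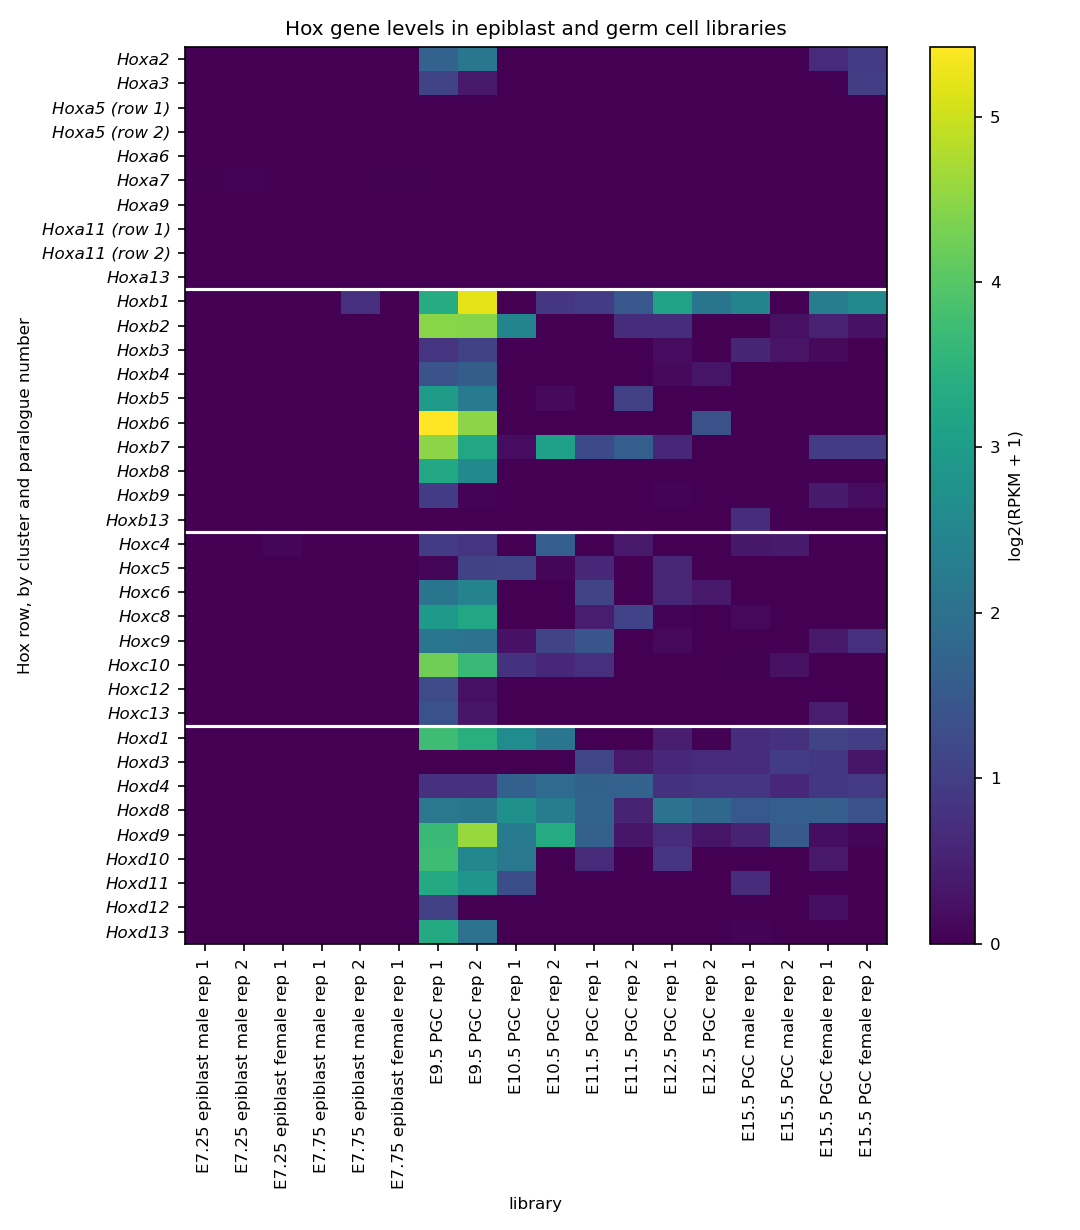
Level of each of the 37 Hox rows (vertical axis, by cluster and paralogue number) in each of the 18 libraries (horizontal axis), as log2(RPKM + 1) on the colour scale. The 2 E9.5 columns hold most of the signal (summed RPKM 210 and 182), and the epiblast columns are near 0. Hoxd1, Hoxd3, Hoxd4, Hoxd8 and Hoxd9 are above 0 in all 6 libraries of E12.5 and E15.5, and Hoxb1 in 5 of them.

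The clusters did not contribute alike. At E9.5 Hoxb rows summed to 98.0 to 112 RPKM, Hoxd to 50.8 to 59.5, Hoxc to 29.9 to 35.1 and Hoxa to 3.44 to 3.64, an order that held in both libraries. At E10.5 Hoxd led with 19.1 to 21.8 RPKM, above Hoxb at 4.56 to 8.48, Hoxc at 2.11 to 3.81 and Hoxa at 0. At E12.5 Hoxb (5.06 to 9.13 RPKM) and Hoxd (4.23 to 6.23) overlapped, and Hoxc stood at 0.287 to 1.10. By position along the clusters, anterior rows summed at E9.5 to 46.7 to 70.8 RPKM, central rows to 59.0 to 95.0 and posterior rows to 52.6 to 68.1, which overlap. By E12.5 these were 3.89 to 9.36, 5.46 to 5.59 and 0.235 to 1.52 RPKM, so the posterior sums lay below the anterior and central ones in both E12.5 libraries. These orders are descriptions and were not tested.

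**Figure D2:**
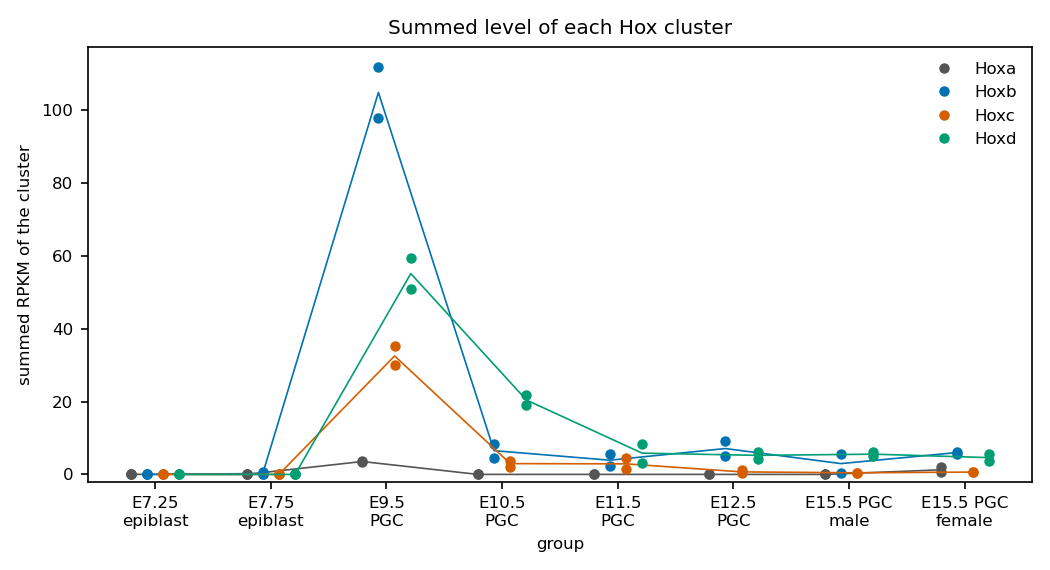
Summed RPKM of the rows of each Hox cluster (vertical axis) in each group (horizontal axis); points are libraries and lines join group means. Hoxb is highest at E9.5 (98.0 to 112), and Hoxd at E10.5 (19.1 to 21.8).

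Cluster a was almost silent on this table. Of its 10 rows, 7 were listed at 0 in every library: both rows of Hoxa5, Hoxa6, Hoxa9, both rows of Hoxa11, and Hoxa13. Hoxa7 reached at most 0.0339 RPKM, in epiblast. The signal of the cluster was Hoxa2, at 2.28 and 3.35 RPKM at E9.5, and Hoxa3, at 1.16 and 0.287 RPKM. Both were listed at 0 in all libraries of E10.5, E11.5 and E12.5. Whether the rows at 0 reflect the cells or the gene models used for counting was not tested.

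At E7.75 against E7.25 epiblast, 0 of the 37 Hox rows passed, against 0.269% of the 14865 genes tested across the series (limma on log2(RPKM + 1), adjusted p under 0.05; 0 also at an unadjusted p under 0.05). Of the 37 rows, 20 reached 1 RPKM in at least 2 libraries and could be tested, and 13 of these did so only through the E9.5 libraries, so that counts are given over all 37. Only 3 rows were above 0 in any epiblast library. Hoxb1, which in mouse is among the first Hox genes of the posterior streak, was the highest, at 0.695 RPKM in E7.75 male replicate 2 and at 0 in the other epiblast libraries. Hoxc4 stood at 0.0573 RPKM in the E7.25 female library.

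At E9.5 against E7.75 epiblast, 19 of 37 Hox rows rose and 0 fell, where 16.3% of all genes tested rose and 27.6% changed in either direction. The 37 rows include 17 that were not tested, whereas the percentages are of tested genes only. Of the 20 tested rows, 13 met the filter only through E9.5. Rises here and falls from E9.5 are thus partly set by the filter, and the counts are descriptions. The rises covered 7 of 10 Hoxb rows, 7 of 9 Hoxd rows, 4 of 8 Hoxc rows and 1 of 10 Hoxa rows. By position, 4 of 7 anterior, 9 of 15 central and 6 of 15 posterior rows rose. The median log2 difference over all 37 rows was 0.94, against 0.04 over all genes tested. The other row that was tested, Hoxc5, stood at 0.0575 and 1.06 RPKM and did not pass (log2 difference 0.56 ± 0.34, SE; adjusted p = 0.241, limma).

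The central gene Hoxb6, a gene of trunk mesoderm, had the highest mean level at E9.5, with 41.8 and 21.4 RPKM; in replicate 2, Hoxb1 and Hoxd9 were higher. It was listed at 0 in all 6 epiblast libraries, in all 4 libraries of E10.5 and E11.5, and in every later library except E12.5 replicate 2 (1.54 RPKM). The rise from E7.75 epiblast was 4.95 ± 0.35 on the log2 scale (adjusted p = 2.36e-07, limma), the largest of any Hox row. Hoxb2, which acts in hindbrain patterning, stood at 20.8 and 20.7 RPKM, nearly equal in the replicates. After E9.5 it was seen at 4.43 and 0 RPKM at E10.5, at 0 and 0.632 at E11.5, at 0.629 and 0 at E12.5, at 0 and 0.191 in male and at 0.409 and 0.206 in female PGC at E15.5. Its rise from a listed 0 in epiblast was 4.44 ± 0.50 (adjusted p = 2.17e-05, limma), the second largest. Hoxb6 and Hoxb2 both met the filter for testing only through the E9.5 libraries. Their rises, later falls and p-values are thus partly set by the filter.

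Posterior genes were also present at E9.5. Hoxc10, a gene of the lumbar and hindlimb level, stood at 17.9 and 11.8 RPKM at E9.5, at 0.737 and 0.519 at E10.5, at 0.666 and 0 at E11.5 and at 0 in both E12.5 libraries. At E15.5 it was listed at 0.0167 and 0.190 RPKM in male and at 0 in female PGC. Hoxd9, a gene of the caudal trunk and limb, stood at 11.8 and 23.0 RPKM at E9.5, at 3.76 and 9.03 at E10.5, at 2.15 and 0.255 at E11.5 and at 0.602 and 0.235 at E12.5. At E15.5 it stood at 0.464 and 1.87 RPKM in male and at 0.141 and 0.0475 in female PGC. Both genes were listed at 0 throughout epiblast, and Hoxd9, unlike Hoxc10, was above 0 in all 12 PGC libraries. Their rises were 3.96 ± 0.26 (adjusted p = 1.32e-07) and 4.13 ± 0.44 (adjusted p = 1.21e-05, limma). Hoxc10 met the filter for testing only through the E9.5 libraries, so its rise is partly set by the filter, whereas Hoxd9 met it without them.

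Hoxb7, another trunk gene, stood at 21.2 and 8.45 RPKM at E9.5. It then stood at 0.132 and 7.58 RPKM at E10.5, at 1.32 and 2.09 at E11.5 and at 0.543 and 0 at E12.5, with 0 in male and 0.930 and 0.937 in female PGC at E15.5. The E10.5 libraries thus differed widely, one near 0 and one close to the lower E9.5 value. Its rise from epiblast was 3.86 ± 0.60 (adjusted p = 0.000311, limma).

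**Figure D3:**
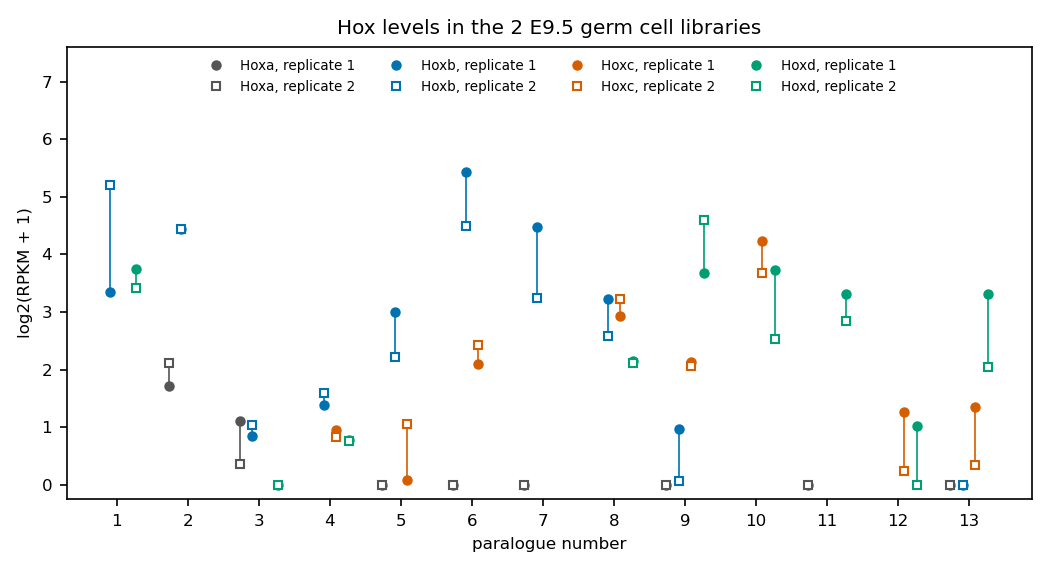
Level of each Hox gene at E9.5 as log2(RPKM + 1) (vertical axis) by paralogue number (horizontal axis) and cluster (colour); filled points are replicate 1 and open points replicate 2, joined by a line. High levels occur from paralogue 1 (Hoxb1, 9.18 and 35.7 RPKM) to paralogue 10 (Hoxc10, 17.9 and 11.8 RPKM), and replicate 1 is the higher for each detected gene of paralogues 10 to 13.

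The 2 E9.5 libraries differed in which Hox genes led. Of the rows above 0 at E9.5, 19 were higher in replicate 1 and 8 in replicate 2. All 7 detected genes of paralogues 10 to 13 were higher in replicate 1, among them Hoxd10 (12.3 and 4.80 RPKM) and Hoxd13 (8.94 and 3.11 RPKM), the terminal gene of its cluster. Hoxb1 went the other way, with 9.18 RPKM in replicate 1 and 35.7 in replicate 2. The endothelium and blood markers summed to 183 RPKM in replicate 1 and 95.7 in replicate 2. Primitive streak and tail bud (332 and 434), hindgut endoderm (72.2 and 110), gonadal somatic (35.7 and 66.4) and mesenchyme markers (47.6 and 54.1) went the other way. Extraembryonic (552 and 533), lateral plate (155 and 155) and paraxial mesoderm markers (134 and 135) differed little. The 7 germ cell markers summed to 423 and 603 RPKM. Prdm14 (11.5 and 3.64) and Nanos3 (84.1 and 62.5) were higher in replicate 1. Higher in replicate 2 were Dppa3 (0.106 and 31.3), Dnd1 (29.6 and 107), Tfap2c (206 and 287), Kit (67.9 and 85.3) and Prdm1 (23.4 and 26.2). Of the caudal homeobox activators of Hox genes, Cdx1 was higher in replicate 2 (42.8 and 152 RPKM), and Cdx2 (59.6 and 29.1) and Cdx4 (51.9 and 33.4) in replicate 1. The part of these differences in the Hox levels was not tested.

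At E10.5 against E9.5, 17 of 37 Hox rows fell, where 18.4% of all genes tested fell, and 1 rose, where 29.9% changed in either direction. The falls covered 7 of 10 Hoxb, 5 of 9 Hoxd, 4 of 8 Hoxc and 1 of 10 Hoxa rows. They are partly set by the filter, which 13 of the tested rows met only through E9.5. Of the 27 rows above 0 at E9.5, 13 were listed at 0 in both E10.5 libraries, which are of low depth. Of all rows, 42.6% and 44.1% were above 0 in the E9.5 libraries and 37.5% and 37.4% in those of E10.5. For Hox rows these shares were 73.0% and 70.3%, and 29.7% in each E10.5 library. How many of all rows went from above 0 to 0 was not counted. The median log2 difference over all 37 rows was -0.85, against -0.16 over all genes tested. Hoxb6 had the largest fall (-4.95 ± 0.38, adjusted p = 1.92e-06, limma). Without E9.5 replicate 1, Hoxa2, Hoxb4, Hoxb8, Hoxc10 and Hoxd13 no longer met the filter and were not tested. Hoxd10, Hoxb7 and Hoxc9 then lost the call (log2 differences -1.45, -1.60 and -1.36). The count was 9 when only the 4 libraries compared entered the fit.

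Hoxb1, the paralogue 1 gene known for an autoregulatory loop with Pbx proteins, had the second largest fall at E10.5. It stood at 9.18 and 35.7 RPKM at E9.5, at 0 and 0.800 at E10.5, at 0.963 and 1.78 at E11.5 and at 7.70 and 3.28 at E12.5. At E15.5 it stood at 4.44 and 0 RPKM in male and at 3.95 and 5.0 in female PGC. The level at E10.5 lay below that of both E9.5 and both E12.5 libraries, while one male library at E15.5 was listed at 0. The fall to E10.5 was -3.85 ± 0.71 (adjusted p = 0.0011, limma). The differences of E11.5 from E10.5 (0.80 ± 0.71, adjusted p = 0.575) and of E12.5 from E11.5 (1.39 ± 0.71, adjusted p = 0.295, limma) did not pass. Hoxb1 had the highest mean of all Hox rows over E12.5 and E15.5, 4.06 RPKM.

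Hoxd1, the paralogue 1 gene of cluster d, fell in 2 steps. It stood at 12.4 and 9.65 RPKM at E9.5, at 5.25 and 3.40 at E10.5, at 0 in both E11.5 libraries and at 0.372 and 0.0166 at E12.5. At E15.5 it stood at 0.639 and 0.711 RPKM in male and at 1.15 and 0.970 in female PGC. No 2 of the first 3 PGC stages overlapped. The fall from E9.5 to E10.5 was -1.19 ± 0.27 (adjusted p = 0.00479) and from E10.5 to E11.5 -2.39 ± 0.27 (adjusted p = 0.000291, limma). The first step did not pass with a pseudocount of 0.1 (adjusted p = 0.171), quantile normalization (0.069) or only the 4 libraries compared (0.169), nor the second with only the libraries compared (0.088).

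The Hoxd4 and Hoxd8 genes, of the neck and trunk levels, had another course. Hoxd4 stood at 0.713 and 0.700 RPKM at E9.5, at 2.19 and 2.72 at E10.5, at 2.19 and 2.25 at E11.5 and at 0.728 and 0.823 at E12.5. At E15.5 it stood at 0.824 and 0.509 RPKM in male and at 0.841 and 0.888 in female PGC. It was the row that rose from E9.5 to E10.5 (3.47-fold in mean RPKM; log2 difference 1.01 ± 0.23, adjusted p = 0.00507, limma), and its E10.5 and E11.5 libraries lay above all others. These 4 libraries are those of low depth. The rise did not pass with only the 4 libraries compared (adjusted p = 0.176).

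Hoxd8 stood at 3.41 and 3.32 RPKM at E9.5, at 5.59 and 3.94 at E10.5, at 2.32 and 0.432 at E11.5 and at 3.20 and 2.56 at E12.5. At E15.5 it stood at 1.81 and 2.09 RPKM in male and at 2.12 and 1.53 in female PGC. Like Hoxd4 it was above 0 in all 12 PGC libraries and listed at 0 in all 6 epiblast libraries. The difference between E10.5 and E9.5 (0.39 ± 0.35, adjusted p = 0.456) and that between E12.5 and E9.5 (-0.17 ± 0.35, adjusted p = 0.785, limma) did not pass.

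**Figure D4:**
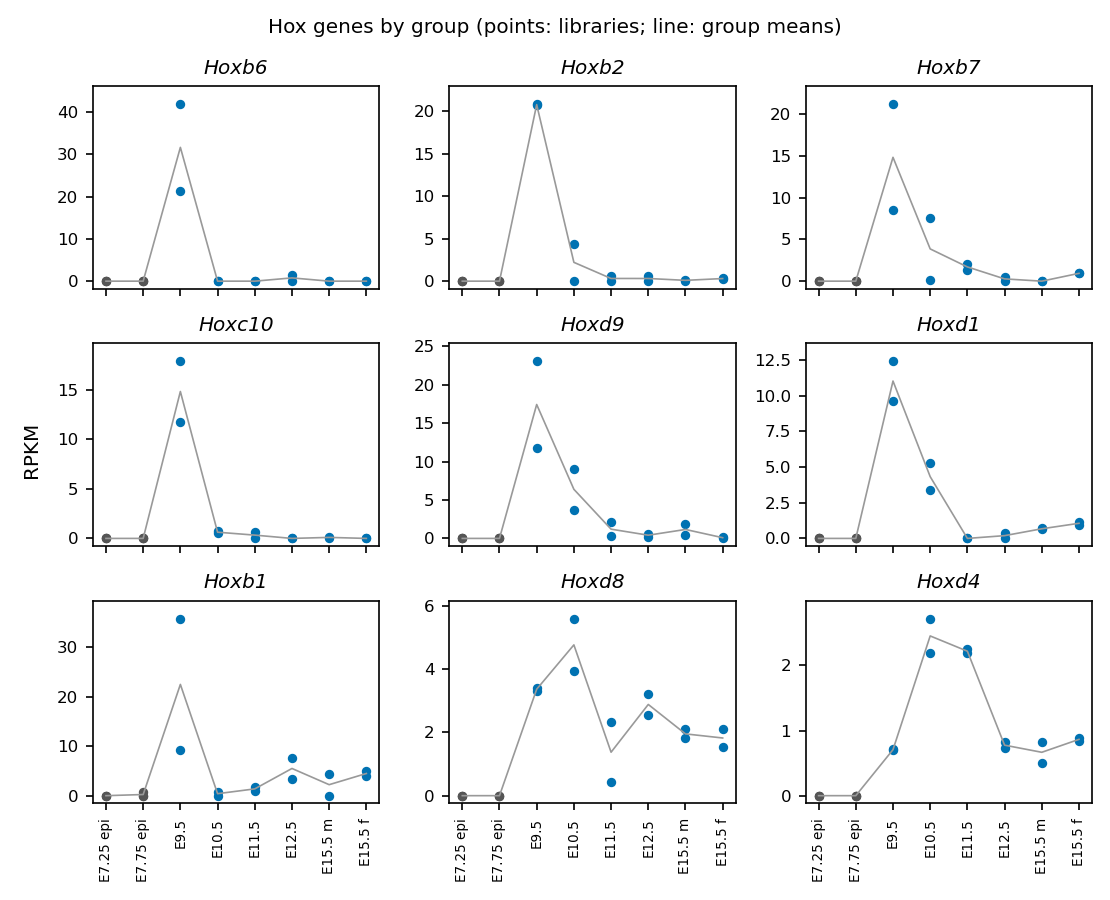
RPKM (vertical axes, each with its own scale) of 9 Hox genes by group (horizontal axes; epi, epiblast; m, male; f, female); points are libraries, grey for epiblast and blue for PGC, and lines join group means. Hoxb6 falls from 41.8 and 21.4 to a listed 0 at E10.5, whereas Hoxd8 stays between 0.432 and 5.59 in all PGC libraries.

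The upstream sequences of Hoxb1, Hoxd8 and Hoxd9 are shown because Hoxb1 and Hoxd8 led at E12.5 and E15.5, while Hoxd9, whose start lies 7217 bases from that of Hoxd8 on the same strand, had fallen by then. Each is the 250 bases before the gene start in RefSeq on build GRCr8, plus strand, read 5′ to 3′. They lie at chr10:81827665-81827914 for Hoxb1, chr3:80014973-80015222 for Hoxd8 and chr3:80007756-80008005 for Hoxd9. The expression table was made on another build, so its gene models may start elsewhere. Capitals mark a match to a motif of joint HOX and PBX binding, spelled TGATNNAT, which was searched on both strands.
Hoxb1: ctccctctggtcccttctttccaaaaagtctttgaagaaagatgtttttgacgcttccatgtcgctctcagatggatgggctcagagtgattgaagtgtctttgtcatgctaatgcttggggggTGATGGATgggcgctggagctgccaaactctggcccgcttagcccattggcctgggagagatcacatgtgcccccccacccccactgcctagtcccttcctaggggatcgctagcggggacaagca
Hoxd8: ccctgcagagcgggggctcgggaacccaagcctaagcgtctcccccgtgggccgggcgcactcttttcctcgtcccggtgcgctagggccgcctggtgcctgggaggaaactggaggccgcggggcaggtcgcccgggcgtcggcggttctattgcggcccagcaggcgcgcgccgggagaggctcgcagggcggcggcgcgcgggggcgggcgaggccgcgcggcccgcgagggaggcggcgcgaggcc
Hoxd9: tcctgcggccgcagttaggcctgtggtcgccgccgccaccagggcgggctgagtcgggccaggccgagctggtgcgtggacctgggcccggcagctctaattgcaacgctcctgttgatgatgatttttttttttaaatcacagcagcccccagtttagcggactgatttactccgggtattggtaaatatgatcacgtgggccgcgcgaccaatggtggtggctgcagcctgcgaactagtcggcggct

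The motif was found upstream of Hoxb1 and in neither of the other two windows. In all, 18 Hox symbols had a RefSeq promoter entry, and 3 of them (Hoxb1, Hoxa2 and Hoxd11) held the motif, against 7.93% of 33360 promoter windows of the same length. A CDX motif, spelled TTTATNG and searched on both strands, stood in 1 of the 18 (Hoxa9), against 10.1% of all windows; the spellings share no fixed stretch and were counted apart. CpG pairs numbered 6 upstream of Hoxb1, 38 upstream of Hoxd8 and 20 upstream of Hoxd9. The median was 19 over the 18 Hox windows (3 to 39) and 5 over all windows. Such matches describe letters in a window, and binding at them was not measured.

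At E11.5 against E10.5, 3 of 37 Hox rows fell and 0 rose, where 3.61% of all genes tested fell and 7.19% changed in either direction. All were of cluster d: Hoxd1, Hoxd9 (-1.80 ± 0.48, adjusted p = 0.0384) and Hoxd8 (-1.39 ± 0.35, adjusted p = 0.0311, limma). In both Hoxd8 and Hoxd9 the E11.5 libraries lay apart, with replicate 2 the lower. The count was 0 with only the 4 libraries compared. Without E11.5 replicate 2 the differences shrank to -0.78 for Hoxd8 and -1.13 for Hoxd9. Hoxd9 also lost the call without each single epiblast library (adjusted p = 0.0505 to 0.0536) and with no filter (0.0588, limma). Its call thus depended on groups outside the comparison as well.

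At E12.5 against E11.5, 1 of 37 Hox rows, Hoxd4, fell, where 3.09% of all genes tested fell and 7.21% changed in either direction (2.86-fold; log2 difference -0.86 ± 0.23, adjusted p = 0.0412, limma). It lost the call in 15 of 24 alternatives, among them each one that left out an epiblast library. At E15.5, taken as the mean of male and female PGC, against E12.5, 0 rows passed, where 15.1% of all genes tested changed (limma; 1 row, Hoxd1, at an unadjusted p under 0.05). Male against female PGC at E15.5 gave 1 row, lower in males, where 4.33% of all genes tested were lower and 9.68% differed in either direction. This was Hoxa2, an anterior gene of the hindbrain and branchial arches, listed at 0 in both male libraries and at 0.565 and 0.960 RPKM in the female ones. The groups did not overlap, but all 4 values lay under 1 RPKM, and the call (-0.81 ± 0.22, adjusted p = 0.0352, limma) was lost in 7 of 22 alternatives.

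Over the whole span from E9.5 to E12.5, 16 of 37 Hox rows fell and 0 rose, where 11.9% of all genes tested fell and 23.2% changed in either direction. These stages have similar estimated depth, and without the E10.5 and E11.5 libraries the count was again 16. Falls covered 6 of 10 Hoxb, 5 of 9 Hoxd, 4 of 8 Hoxc and 1 of 10 Hoxa rows. These falls, too, are partly set by the filter, which 13 of the tested rows met only through E9.5. The median log2 difference over all 37 rows was -0.86, against 0.00 over all genes tested. The 2 largest on the log2(RPKM + 1) scale were Hoxb6 (41.0-fold in mean RPKM; -4.28 ± 0.38, adjusted p = 3.41e-06) and Hoxb2 (66.0-fold; -4.09 ± 0.55, adjusted p = 0.00011, limma). In mean RPKM other rows fell by larger ratios, among them Hoxc8 from 7.47 to 0.0156 RPKM, and Hoxc10, Hoxb8, Hoxb5, Hoxd11, Hoxd13 and Hoxa2 to a listed 0. Among the tested rows Hoxb1 (-1.66 ± 0.71, adjusted p = 0.111), Hoxd8, Hoxd4 and Hoxc5 did not pass.

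Few Hox genes were higher at E12.5 than in epiblast, a smaller share than among all genes tested. Against E7.75 epiblast, 3 of 37 rows were higher at E12.5 and 0 lower, where 23.2% of all genes tested were higher and 41.4% differed in either direction. Hoxb1 was higher by 2.36 ± 0.65 (adjusted p = 0.00969), Hoxd8 by 1.95 ± 0.32 (adjusted p = 0.000267) and Hoxd4 by 0.83 ± 0.21 (adjusted p = 0.00667, limma). Both E12.5 values of Hoxd4, 0.728 and 0.823, lay under 1 RPKM. Without E12.5 replicate 1, the library with 7.70 RPKM, the difference of Hoxb1 did not pass (adjusted p = 0.11). Over E12.5 and E15.5 the means were 4.06 RPKM for Hoxb1, 2.22 for Hoxd8, 0.769 for Hoxd4 and 0.643 for Hoxd1. Of all Hox rows, 5 were above 0 in each of the 6 libraries of E12.5 and E15.5, and all 5 (Hoxd1, Hoxd3, Hoxd4, Hoxd8 and Hoxd9) belonged to cluster d. Of these Hoxd3, which was not tested, was listed at 0 at E9.5 and E10.5 and at 0.241 to 1.20 RPKM from E11.5 on.

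Genes known to act upstream of Hox moved at the same steps. Of 29 measured regulators, 26 were tested; 16 rose and 4 fell at E9.5 against E7.75 epiblast, and 0 rose and 15 fell at E10.5 against E9.5 (median log2 differences 1.78 and -1.32). Of all genes tested, 16.3% rose and 27.6% changed at the first step, and 18.4% fell and 29.9% changed at the second. Caudal homeobox activators rose strongly: Cdx1 from a listed 0 to 42.8 and 152 RPKM, Cdx2 to 59.6 and 29.1, and Cdx4 to 51.9 and 33.4. At E10.5 they stood at 25.5 and 18.9, 17.5 and 5.69, and 5.53 and 4.35 RPKM. The Cdx genes thus fell, with all E10.5 values above those of epiblast, and Cdx1 was again at 27.8 and 26.8 RPKM in female PGC at E15.5, where Hox sums were low. Log2 differences at E10.5 were -1.83 ± 0.49 for Cdx1 (adjusted p = 0.0121), -1.94 ± 0.50 for Cdx2 (adjusted p = 0.00928) and -2.85 ± 0.39 for Cdx4 (adjusted p = 0.000124, limma).

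Genes of retinoic acid metabolism were among those that changed at both steps. Aldh1a2, which makes retinoic acid, stood at 39.9 and 102 RPKM at E9.5 and 2.15 and 4.24 at E10.5, and was again at 48.6 and 64.0 RPKM in male PGC at E15.5. Cyp26a1, which degrades it, stood at 36.6 and 30.4 RPKM at E9.5 and 1.02 and 0 at E10.5. Among the genes that fell at E9.5 was Wnt3, an inducer of the primitive streak (-1.77 ± 0.45, adjusted p = 0.00937, limma).

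Of 9 measured TALE cofactors, all tested, 3 rose and 1 fell at E9.5, where 27.6% of all genes tested changed, and 0 rose and 5 fell at E10.5, where 29.9% changed (median log2 differences -0.34 and -1.69). Meis1 (3.95 and 7.39 RPKM) and Meis2 (3.33 and 11.8 RPKM) rose from a listed 0 in epiblast. Pbx3 and Meis3 were already present in epiblast, at 10.3 to 21.0 and 8.18 to 10.5 RPKM, and stood at 15.5 and 9.19 and at 9.81 and 18.5 RPKM at E9.5. At E10.5 they were at 0.520 and 0 and at 0.371 and 1.48 RPKM, falls of -3.39 ± 0.39 (adjusted p = 3.51e-05) and -2.98 ± 0.39 (adjusted p = 8.43e-05, limma). Pknox2 was the cofactor that fell at E9.5, from a mean of 28.1 to 2.51 RPKM.

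Chromatin regulators of Hox were also measured. Of 18 measured Polycomb genes, all tested, 8 rose and 1 (Phc1, from a mean of 147 to 36.0 RPKM) fell at E9.5, and 3 fell at E10.5 (medians 0.46 and -0.41), where 27.6% and 29.9% of all genes tested changed. Bmi1, a subunit of Polycomb repressive complex 1, rose by 1.83 ± 0.55 (adjusted p = 0.023) and fell by 2.01 ± 0.60 on the log2 scale at E10.5 (adjusted p = 0.022, limma). Of 11 measured Trithorax and UTX genes, which oppose Polycomb, 1 rose and 2 fell at E9.5 and 1 rose and 1 fell at E10.5 (medians -0.05 and 0.19), which is no more than the 27.6% and 29.9% of all genes tested that changed.

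**Figure D5:**
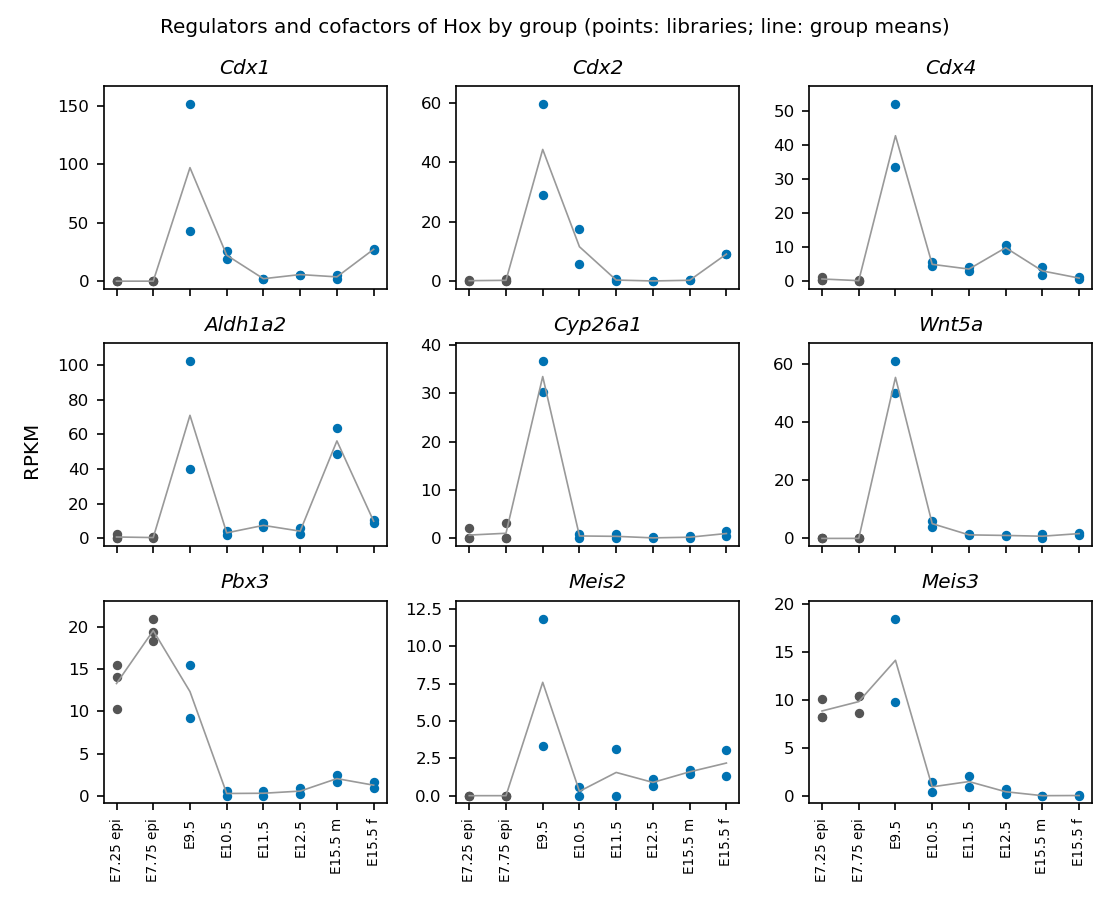
RPKM (vertical axes, each with its own scale) of 9 regulators and cofactors of Hox by group (horizontal axes; epi, epiblast; m, male; f, female); points are libraries, grey for epiblast and blue for PGC, and lines join group means. By group mean all but Pbx3 are highest at E9.5 (Cdx1 at 42.8 and 152), Pbx3 and Meis3 are already present in epiblast, and Aldh1a2 is high again in male PGC at E15.5 (48.6 and 64.0).

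Markers of several other cell types rose at E9.5 and fell at E10.5, as did most tested Hox rows. The lists did not all do so alike. Their counts are to be read beside the 16.3% of all genes tested that rose at E9.5 and the 18.4% that fell at E10.5. Some markers met the filter for testing only through the E9.5 libraries, among them Osr1, Tal1, Kdr, Pitx1, Tbx20, Hand2, Ahnak and Msgn1. Among the regulators above this held for Cyp26c1. A rise and fall of such genes is partly set by the filter, so the counts here and below are descriptions. The 8 measured markers of intermediate and lateral plate mesoderm summed to 155 RPKM in both E9.5 libraries, against 0 to 3.97 in E7.75 epiblast, 1.21 to 5.42 at E10.5 and 6.11 to 8.82 at E12.5; of 6 tested, 4 rose at E9.5 and 4 fell at E10.5, and Pax8 was at 0 at E9.5. The 6 mesenchyme markers summed to 47.6 to 54.1 RPKM at E9.5, 0.0461 to 1.20 in E7.75 epiblast and 5.27 to 5.86 at E10.5, with 4 rises and 3 falls among 5 tested and Col1a2 at 0. The 8 markers of endothelium and blood summed to 95.7 to 183 RPKM at E9.5, 1.55 to 2.1 in E7.75 epiblast and 0.926 to 1.19 at E10.5, with 3 rises and 3 falls among 6 tested, and Gata1 and Ptprc at 0. These 3 lists were thus high in the same libraries as Hox and dropped at the same step.

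In 2 further lists a single gene held most of the sum at E10.5. The 11 markers of extraembryonic mesoderm and allantois, tissue next to early PGC, summed to 533 to 552 RPKM at E9.5, 4.05 to 9.09 in E7.75 epiblast, 232 to 237 at E10.5 and 137 to 166 at E12.5; of 9 tested, 8 rose at E9.5 and 7 fell at E10.5, and Plac1 was at 0. The signal ligand Bmp4 made up most of the E10.5 sum (196.9 and 200.3 RPKM), whereas Hand1 went from 261 and 245 RPKM to 36.7 and 30.4, and Pitx1 and Foxf1 to a listed 0. The 8 paraxial mesoderm markers summed to 134 to 135 RPKM at E9.5 and to 209 to 234 at E10.5, but of 7 tested 1 rose and 5 fell at E10.5 (median -1.44). The sum was carried by the transcription factor gene Tcf15 (111.5 and 99.0 RPKM at E9.5, 234 and 207 at E10.5). The 10 primitive streak and tail bud markers, which include the Cdx genes counted above, summed to 332 to 434 RPKM at E9.5, 26.5 to 87.4 in E7.75 epiblast and 62.3 to 81.7 at E10.5, with 7 rises and 5 falls among 8 tested and Mixl1 at 0. The 5 hindgut endoderm markers summed to 72.2 to 110 RPKM at E9.5 and 13.2 to 27.7 at E10.5. Of 4 tested, 2 rose at E9.5 and 1 fell at E10.5. Neural tube markers, the tissue in which many Hox genes are strongest, summed to 0 to 0.617 RPKM at E9.5, with Pax6, Nkx6-1 and Neurog2 at 0. None of these markers met the filter for testing. The 9 markers of gonadal somatic cells summed to 35.7 to 66.4 RPKM at E9.5, with Wt1, Nr5a1, Emx2 and Foxl2 at 0. Of 7 tested, 2 rose at E9.5, and 1 rose and 3 fell at E10.5. The 7 germ cell markers summed to 423 to 603 RPKM at E9.5 and 641 to 684 at E10.5, and 0 of them passed at E10.5 in either direction. The 5 measured epiblast markers summed to 454 to 489 RPKM at E9.5 and 2196 to 2380 at E10.5, mostly Utf1 (1982 and 1861 at E10.5). Of 4 tested, 4 fell at E9.5, where 27.6% of all genes tested changed in either direction. At E10.5, 1 rose and 0 fell, where 29.9% changed. The part of other cells in the Hox levels of E9.5 was not tested.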

How the data were processed

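RNA was extracted with a PicoPure kit and libraries were made with a SMART-Seq v4 kit, per the labels' protocols. The authors deposited RPKM values in 1 table with 1 column per library. The build rn6, Cufflinks 2.2.1, TopHat2 2.1.0, cutadapt 1.14 and bcl2fastq 2.18.0.12 stand in the submitters' processing notes without role or order. Since strand use, multi-mapping reads and the annotation are not stated there, overlapping, antisense and duplicate Hox models are uncertain.

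RPKM were transformed to log2(RPKM + 1) and tested with limma 3.58.1 in R 4.3.3 (8 groups, 10 residual degrees of freedom, variance trend, shared spread) over the 14865 genes with at least 1 RPKM in at least 2 libraries, with Benjamini-Hochberg adjustment at 0.05 within each comparison. The model was tested on simulated data. Fold changes on this scale understate those of low genes. The shared spread draws on groups in which Hox genes are listed at 0, so their p-values can be too small. Values with ± are estimates and SE; n is 3 per epiblast stage and 2 per PGC group. The table holds no read counts, and relative depth was taken as the inverse of the ratio that low values most often took between a library and E7.75 female epiblast, which rested on 38 to 158 genes. No replicates were identical.

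The members, marker and pathway lists were chosen with earlier results of these data known. Described in full were the 6 Hox genes highest at E9.5, the 4 highest over E12.5 and E15.5, the highest in epiblast, and the 2 largest rises and falls that passed in each comparison. Alternatives covered the pseudocount, the filter, scaling, a replicate block, the libraries fitted and each library left out. Promoters came from RefSeq (GRCr8); bases after the gene start were not used. Figures were drawn with matplotlib 3.10.9.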

Additional observations from a re-analysis of the deposited data

How the results depend on the processing

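Single Hox genes were followed under the alternatives only where their unadjusted limma p was under 0.05 in the main fit. Of 1618 such values, none changed direction while passing in either fit. In all, 1522 kept their side of the threshold, 85 lost the call and 11 gained it. Many alternatives left out a library outside the groups compared, which changes only the shared spread and the filter. The counts of Hox rows that passed, 19 at E9.5 against E7.75 epiblast and 16 at E12.5 against E9.5, became 9 and 8 with a filter of at least 5 RPKM, which left 9 Hox rows to test. That filter gave 8 in place of 18 at E10.5 against E9.5, 0 in place of 1 at E12.5 against E11.5, 1 in place of 3 at E12.5 against E7.75 epiblast and 0 in place of 1 between the sexes. With only the libraries of the groups compared, the count was 9 at E10.5 against E9.5, 0 at E11.5 against E10.5 (in place of 3), 0 at E12.5 against E11.5 and 0 between the sexes. A pseudocount of 0.1 gave 1 in place of 0 at E15.5 against E12.5 and 5 at E12.5 against E7.75 epiblast. With no filter on low values the counts were 2 at E12.5 against E11.5, 3 at E15.5 against E12.5, 5 at E12.5 against E7.75 epiblast and 2 between the sexes. Quantile normalization gave 2 at E12.5 against E11.5 and 0 between the sexes, and median-ratio scaling moved no count by over 1.5 times. The alternative without the E10.5 and E11.5 libraries, chosen after seeing the data, gave 0 between the sexes. Beyond the filter and the smaller fits, the cause of these shifts was not tested.

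Replicate numbers did not pair the samples: the correlations of the replicate differences lay between -0.13 and 0.058 over 28 pairs of groups. A replicate block gave 0 at E12.5 against E11.5 and moved no other count by over 1.5 times. Leaving out each library in turn gave 0 to 0 at E7.75 against E7.25 epiblast, 13 to 19 at E9.5 against E7.75 epiblast, 10 to 18 at E10.5 against E9.5, 1 to 5 at E11.5 against E10.5, 0 to 1 at E12.5 against E11.5, 0 to 1 at E15.5 against E12.5, 11 to 17 at E12.5 against E9.5, 3 to 3 at E12.5 against E7.75 epiblast and 0 to 1 between the sexes; a lone library was assumed to vary like the other groups. The filter was applied again each time, so without an E9.5 library some Hox rows could no longer be tested. Of the calls of single genes, Hoxd9 lost that at E10.5 in 19 of 25 alternatives and that at E11.5 in 13 of 25. Hoxb7, Hoxd10 and Hoxc9 each lost that at E10.5 in 5. Low depth at E10.5 and E11.5 limits what a listed 0 shows there.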

Other observations

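The genes of most similar course to the mean of the 20 tested Hox rows, by Pearson r over the 8 group means of log2(RPKM + 1), were Wnt5a (r = 0.985), Fli1 (0.984), Pcmtd1 (0.980), Osr1 (0.977) and Krt19 (0.974), of 11081 genes compared. Wnt5a, a secreted Wnt ligand of the posterior body, had a mean of 55.5 RPKM at E9.5 and 5.09 at E10.5. Fli1, a transcription factor of blood vessels, had 32.8 and 0.957 RPKM, and Osr1, a transcription factor of intermediate and lateral mesoderm, 10.6 and 0.483 RPKM. Krt19, a keratin of epithelia, had 50.6 and 3.41 RPKM. Pcmtd1 was present throughout, at 9.51 RPKM in E7.75 epiblast, 62.5 at E9.5 and 14.3 at E10.5. The group means share their libraries with the Hox profile and include a single high group, so these values are a description.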
